A study of Mus musculus with 16 samples.

Results

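The lysosomal cathepsins described here are 10 genes, Ctsa, Ctsb, Ctsc, Ctsd, Ctsh, Ctsk, Ctsl, Ctso, Ctss and Ctsz, chosen by name from the 55421 genes of each count table, and all 10 were found by their Ensembl identifiers. RNA-seq was done on 16 libraries of C57BL/6 mice on HFD, 2 in each of 8 groups, from macrophages of WAT (white adipose tissue) or of liver as labelled. In each tissue the groups were GPR132 fl/fl mice on vehicle, GPR132 fl/fl mice on the antagonist NOX_6_18, and mice that also carry Lyz2-cre, labelled CKO, on vehicle or on NOX_6_18. All groups carry the floxed Gpr132 gene, which encodes a G protein-coupled receptor, and Lyz2-cre drives recombination in myeloid cells, so other cells of the tissue keep the gene. No age, dose or duration is given in the labels. The labels do not tie the 2 libraries in a group to different animals, so p-values speak only of library-to-library spread, which may be technical.

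Cathepsins are proteases that work mainly in the acidic lumen of endosomes and lysosomes. They are made as inactive proenzymes, reach the lysosome largely by the mannose 6-phosphate route, and are activated there by cleavage. Most are papain-like cysteine proteases (cathepsins B, C, H, K, L, O, S and Z), cathepsin D is an aspartic protease and cathepsin A a serine carboxypeptidase. In macrophages they degrade engulfed material, trim the invariant chain of MHC class II and, when secreted, cut extracellular matrix.

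Stretches around the transcription start are shown for 5 of the genes because they hold letters known from lysosomal or macrophage genes, or, for Ctsk, none of those searched. They come from RefSeq promoter windows of GRCm38.p6 that run from 250 bases before to 50 after a start. Of the cathepsins 8 had a window, Ctsa had 2, and Ctsb and Ctsh had none. Capitals mark the letters searched, on both strands: TCACGTGA (the core of the CLEAR element bound by the MiT/TFE factors), the shorter E-box CACGTG that lies inside it, TCATGTGA (a variant), GAGGAAGT (a PU.1 core, seen as ACTTCCTC on the other strand) and GGGCGG (a GC box). In Ctsa (chr2:164833757-164833786, plus strand) TCACGTGA occurs 2 times around a start. In Ctsd (chr7:142387908-142387937, minus strand) this motif lies at positions -99 to -92 from the start. Positions count from the RefSeq start of the window. The stretches of Ctsa, Ctsd and Ctsl lie inside the GENCODE bounds given below for these genes, whose 5' ends differ from the RefSeq starts.
Ctsa: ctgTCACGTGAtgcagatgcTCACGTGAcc
Ctsd: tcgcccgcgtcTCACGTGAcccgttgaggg
Ctsl (chr13:64370742-64370765, minus strand): gttagaagcCACGTGctgatctaa
Ctss (chr3:95526726-95526811, plus strand): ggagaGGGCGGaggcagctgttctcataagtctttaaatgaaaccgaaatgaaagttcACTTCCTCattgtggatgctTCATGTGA
Ctsk (chr3:95499110-95499209, plus strand): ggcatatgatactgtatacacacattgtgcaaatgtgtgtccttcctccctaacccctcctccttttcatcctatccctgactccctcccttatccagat
TCACGTGA is in 1.12% of the 27025 genes with a window, CACGTG in 8.09%, TCATGTGA in 1.15%, GAGGAAGT in 3.69% and GGGCGG in 38.2%. Of the 8 cathepsins with a window, 2 (Ctsa, Ctsd) hold TCACGTGA, 3 (Ctsa, Ctsd, Ctsl) CACGTG, 1 (Ctss) TCATGTGA, 2 (Ctsc, Ctss) GAGGAAGT and 5 (Ctsc, Ctsd, Ctso, Ctss, Ctsz) GGGCGG. The AP-1 motif TGACTCA, in 5.95% of genes, is in none of the 8 windows. A match is a description of the letters and was not tied to binding.

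WAT libraries held 48348395 to 58396991 counts and liver libraries 45624957 to 60761705. Mitochondrial genes held 2.31 to 3.61% of the counts in WAT and 42.96 to 44.88% in liver. Levels are CPM (each gene's count scaled to a common library total) on scaling factors set within a tissue, and levels of different genes are compared per kilobase of exon. Gene positions are those of GENCODE M21 on GRCm38. Gpr132, the targeted gene, stood at 72.5 and 69.7 CPM in WAT of fl/fl mice on vehicle and at 60.3 and 60.1 on NOX_6_18; of the 4 WAT libraries labelled CKO, 1 on vehicle stood at 35.6 CPM and the others at 56.4 to 64.5. In liver it stood at 4.04 to 4.26 CPM in fl/fl mice on vehicle and at 1.46 to 2.81 in the other 3 groups, fl/fl mice on NOX_6_18 included. The level over the whole gene thus did not separate the genotypes, and CKO here means libraries labelled CKO. In WAT both libraries of the fl/fl vehicle group had a lower scaling factor than the other 6 (0.913 and 0.921 against 1.027 to 1.032), and every comparison below with many calls in WAT includes them. Macrophage markers were present in every group, but the 9 fibroblast markers summed to more CPM than the 14 macrophage markers in every WAT group (11536 to 22261 against 8285 to 12452), and the 8 endothelial markers to more in every liver group (5336 to 5908 against 2939 to 3203). The hepatocyte gene Alb, which should be absent from macrophages, stood at 1742 to 2024 CPM in liver. The libraries thus hold RNA of several cell types, and fewer cells of a type cannot be told apart from less RNA per cell.

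In WAT the 10 cathepsins were highest in fl/fl mice on vehicle and lower, at levels close to each other, in the other 3 groups. All 10 were called lower on NOX_6_18 than on vehicle in fl/fl mice, where 13.2% of the 25871 genes tested were called lower (edgeR quasi-likelihood test, adjusted p under 0.05 over all genes tested). All 10 were also called lower in CKO than in fl/fl mice on vehicle (12.4% of genes called lower) and in CKO mice on NOX_6_18 against fl/fl mice on vehicle (13.4%). These 3 comparisons share the 2 fl/fl vehicle libraries, so they are not independent of each other. For each of the 10 genes both fl/fl vehicle libraries lay above all 6 others, as they did for 20.8% of genes tested. The median log2 fold change of the 10 on NOX_6_18 in fl/fl mice was -0.86, against 0.12 over all genes tested, and on the CKO label it was -0.79, against 0.10.

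**Figure D1:**
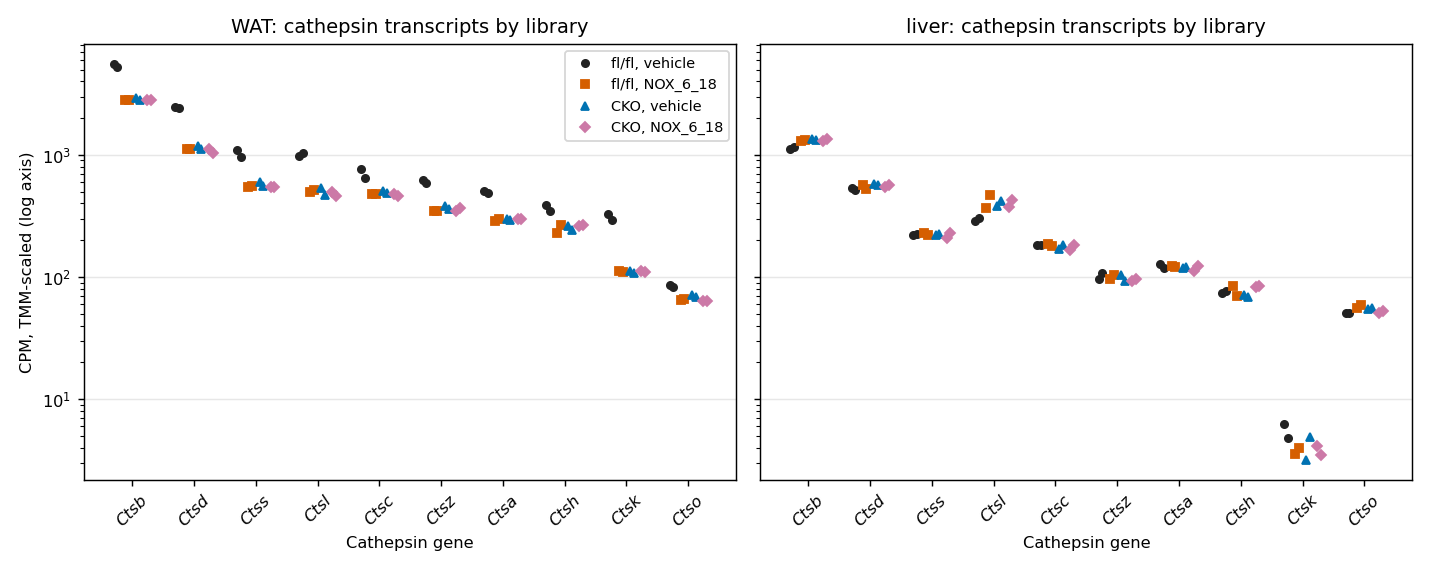
CPM of the 10 cathepsins (log axis) in each of the 8 WAT libraries (left) and 8 liver libraries (right); each point is 1 library, coloured by group. In WAT the 2 fl/fl vehicle points lie above the other 6 for every gene, from Ctsb at 5571 and 5270 CPM to Ctso at 86.7 and 82.1. In liver the fl/fl vehicle points overlap the range of the other 6 for all but Ctsb and Ctsl.

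Cathepsin D, the aspartic endopeptidase that also processes prosaposin, was the most abundant member per kilobase in fl/fl mice on vehicle. Ctsd (chr7:142375911-142388038, minus strand) stood at 2483 and 2443 CPM in WAT of fl/fl mice on vehicle, at 1114 and 1107 on NOX_6_18, at 1184 and 1123 in CKO mice on vehicle and at 1107 and 1041 in CKO mice on NOX_6_18. The fl/fl vehicle libraries were apart from the other 6, which ranged from 1041 to 1184 CPM. Its log2 fold change was -1.15 ± 0.05 (SE, n = 2 against 2, adjusted p = 6.46e-07, edgeR) on NOX_6_18 in fl/fl mice and -1.09 ± 0.05 (adjusted p = 8.19e-07) on the CKO label.

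Cathepsin B, a cysteine protease that acts both inside chains and as a dipeptidyl carboxypeptidase, had the highest CPM. Ctsb (chr14:63122462-63145923, plus strand) stood at 5571 and 5270 CPM in fl/fl mice on vehicle, at 2803 and 2830 on NOX_6_18, at 2912 and 2828 in CKO mice on vehicle and at 2793 and 2821 in CKO mice on NOX_6_18. The 6 libraries outside fl/fl vehicle had a coefficient of variation of 1.49%, against a gap of 47.8% between their mean and that of fl/fl vehicle. The log2 fold changes were -0.94 ± 0.04 (adjusted p = 5.89e-07) on NOX_6_18 in fl/fl mice and -0.92 ± 0.04 (adjusted p = 6.8e-07) on the CKO label.

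Cathepsin L, a broad endopeptidase, and cathepsin S, which cuts the invariant chain in antigen-presenting cells and stays active at neutral pH, moved by similar amounts. Ctsl (chr13:64359337-64370890, minus strand) stood at 974 and 1042 CPM in fl/fl mice on vehicle, at 499 and 518 on NOX_6_18, at 538 and 468 in CKO mice on vehicle and at 499 and 462 in CKO mice on NOX_6_18. Ctss (chr3:95526786-95556403, plus strand) stood at 1101 and 964 CPM in fl/fl mice on vehicle, at 541 and 560 on NOX_6_18, at 605 and 554 in CKO mice on vehicle and at 545 and 548 in CKO mice on NOX_6_18. The other 6 libraries ranged from 462 to 538 CPM for Ctsl and from 541 to 605 for Ctss, below both fl/fl vehicle libraries. On NOX_6_18 in fl/fl mice the log2 fold change was -0.99 ± 0.08 for Ctsl (adjusted p = 2.68e-05) and -0.91 ± 0.07 for Ctss (adjusted p = 3.04e-05), and on the CKO label -1.0 ± 0.08 and -0.83 ± 0.07 (adjusted p = 2.42e-05 and 4.98e-05).

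Cathepsin K, the collagenase known from osteoclasts that fibroblasts also make, showed the largest fold change of the 10 in WAT. Ctsk (chr3:95499256-95509362, plus strand) stood at 329 and 292 CPM in fl/fl mice on vehicle, at 112 and 110 on NOX_6_18, at 112 and 108 in CKO mice on vehicle and at 112 and 109 in CKO mice on NOX_6_18. The other 6 libraries lay between 108 and 112 CPM, and their mean was 64.5% below that of fl/fl vehicle. Ctsk lies next to Ctss on chromosome 3, with 17423 bases between them on the same strand. The log2 fold change was -1.49 ± 0.07 (adjusted p = 1.75e-06) on NOX_6_18 in fl/fl mice and -1.5 ± 0.07 (adjusted p = 1.69e-06) on the CKO label.

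Of the exopeptidases, cathepsin C (dipeptidyl peptidase I) activates granule serine proteases, cathepsin H is mainly an aminopeptidase and cathepsin Z a carboxypeptidase. Ctsc (chr7:88278085-88310888, plus strand) stood at 773 and 651 CPM in fl/fl mice on vehicle and at 458 to 509 (median 476) in the other 6 WAT libraries. Ctsh (chr9:90054152-90076089, plus strand) stood at 392 and 349 CPM in fl/fl mice on vehicle and at 229 to 266 (median 261) in the others, and Ctsz (chr2:174427493-174439039, minus strand) at 628 and 587 against 346 to 379 (median 356). The 2 fl/fl vehicle libraries of Ctsc differed from each other by more than any pair of the other 6, yet both lay above them. On NOX_6_18 in fl/fl mice the log2 fold changes were -0.58 ± 0.08 for Ctsc (adjusted p = 0.000658), -0.59 ± 0.09 for Ctsh (adjusted p = 0.00121) and -0.81 ± 0.06 for Ctsz (adjusted p = 1.55e-05). On the CKO label they were -0.51 ± 0.08, -0.56 ± 0.09 and -0.71 ± 0.06, all called lower.

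Cathepsin A, which besides cutting peptides shields the sialidase NEU1 and β-galactosidase in the lysosome, is encoded by Ctsa (chr2:164832873-164841032, plus strand), which stood at 504 and 487 CPM in fl/fl mice on vehicle and at 288 to 301 (median 298) in the other 6 libraries. The log2 fold change of Ctsa was -0.75 ± 0.05 (adjusted p = 1.58e-05) on NOX_6_18 in fl/fl mice. Its exons share 10.5% of their bases with Pltp on the opposite strand, an abundant gene that stood at 1641 and 1476 CPM in fl/fl mice on vehicle and at 999 to 1091 in the others; the strand setting of the counting is not given in the sources used here, so reads of the 2 genes may be mixed. The same limit applies to Ctsb (12.8% of exonic bases shared with Fdft1). The genes that overlap Ctsd and Ctsl most, Gm49369 (34.4%, same strand) and Gm47123 (26.8%, opposite strand), had no counts in any library. How reads in shared bases were assigned is unknown, so these empty counts do not show whether Ctsd and Ctsl lost reads there. The levels of Ctsd and Ctsl per kilobase carry this limit too.

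Cathepsin O, a little-studied cysteine protease and the lowest of the 10 in WAT, had the smallest fold change. Ctso (chr3:81932601-81956725, plus strand) stood at 86.7 and 82.1 CPM in fl/fl mice on vehicle, at 64.8 and 66.1 on NOX_6_18, at 71.0 and 68.0 in CKO mice on vehicle and at 63.9 and 64.0 in CKO mice on NOX_6_18. The log2 fold change was -0.37 ± 0.07 (adjusted p = 0.00402) on NOX_6_18 in fl/fl mice and -0.28 ± 0.07 (adjusted p = 0.0149) on the CKO label. These Ctso calls were the only cathepsin calls of the 2 comparisons lost under any alternative, in 2 of 21 on NOX_6_18 and 6 of 21 on the CKO label. Scaling by library totals gave -0.20 (adjusted p = 0.0538) and -0.11 (adjusted p = 0.253), and totals without mitochondrial genes -0.19 (adjusted p = 0.0694) and -0.10 (adjusted p = 0.327). On the CKO label alone, scaling on genes of at least 5 CPM gave -0.14 (adjusted p = 0.165), a fit of only the groups compared -0.26 (adjusted p = 0.0679), and leaving out fl/fl vehicle library 1 or CKO vehicle library 2 an adjusted p of 0.0541 or 0.0898. Removing each library's trend with GC content and length gave larger falls for several members on NOX_6_18 in fl/fl mice, up to -2.32 for Ctsk and -1.75 for Ctss.

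**Figure D2:**
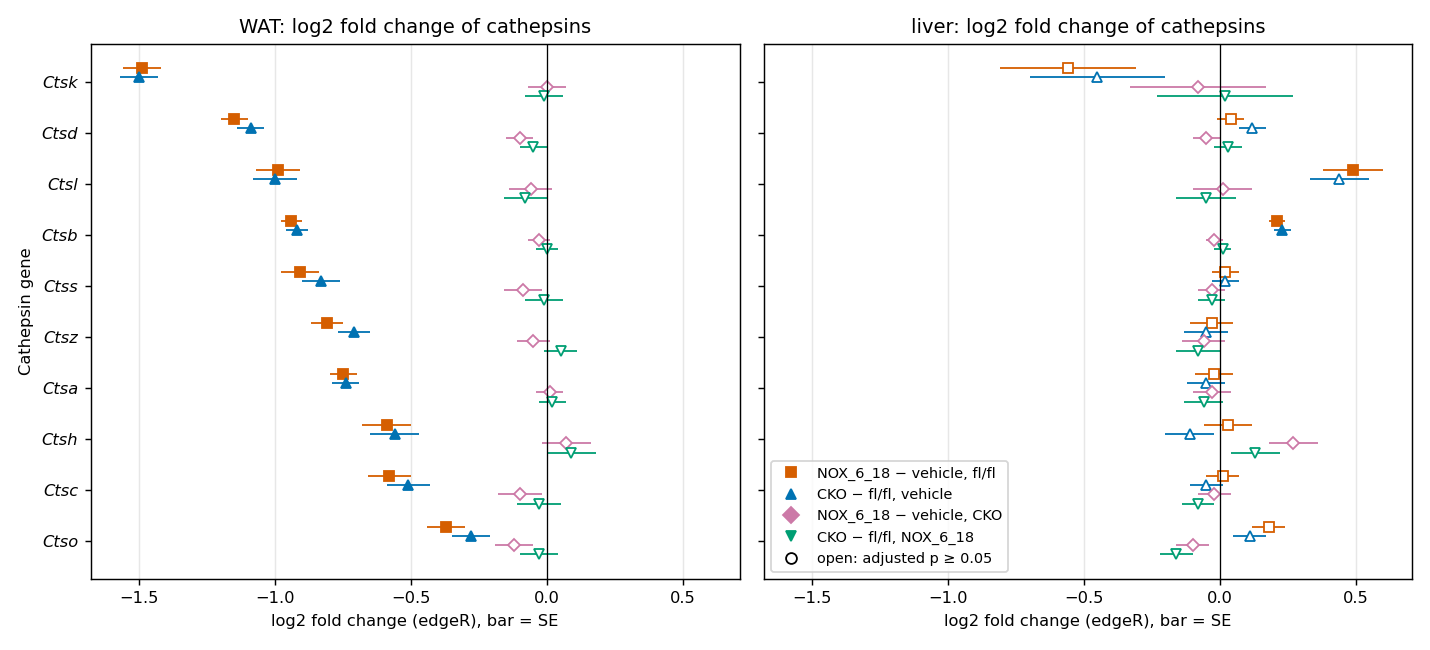
Log2 fold change (edgeR) of each cathepsin with its SE as a bar, in WAT (left) and liver (right), for 4 comparisons marked by colour and shape; filled symbols passed an adjusted p of 0.05 and open symbols did not. In WAT NOX_6_18 in fl/fl mice and the CKO label on vehicle gave values from -1.5 to -0.28, and the other 2 comparisons lay near 0.

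Within the other 3 WAT groups no cathepsin was called. NOX_6_18 against vehicle in CKO mice gave log2 fold changes from -0.12 (Ctso) to 0.07 (Ctsh), 0 of 10 called, against 0.0155% of genes tested. CKO against fl/fl mice on NOX_6_18 gave -0.08 (Ctsl) to 0.09 (Ctsh), 0 of 10 called, against 0.0348% of genes. In both comparisons edgeR also gave 0 of 10 at an unadjusted p under 0.05, DESeq2 and limma-voom called 0 of 10 as well, and the SE of single genes was 0.04 to 0.09. The treatment by genotype interaction in WAT, the effect of NOX_6_18 in CKO mice minus that in fl/fl mice, was called higher for 9 of 10 cathepsins, where 6.71% of genes were called higher. It was 1.49 ± 0.10 for Ctsk (adjusted p = 1.93e-05), 1.05 ± 0.07 for Ctsd (adjusted p = 1.22e-05) and 0.48 ± 0.11 for Ctsc (adjusted p = 0.0145), and for Ctso it was 0.25 ± 0.10 (adjusted p = 0.11). The Ctsc call was lost in 6 of 21 alternatives: with library totals it was 0.32 (adjusted p = 0.0677), with totals without mitochondrial genes 0.30 (adjusted p = 0.0853), and without fl/fl NOX_6_18 library 1 or 2, CKO vehicle library 2 or CKO NOX_6_18 library 1 its adjusted p was 0.0558, 0.0508, 0.0544 and 0.06.

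Per kilobase of exon, the 10 cathepsins of WAT summed to 3812 ± 173 CPM per kb (SD, n = 2) in fl/fl mice on vehicle, 1948 ± 20.5 on NOX_6_18, 2018 ± 79.9 in CKO mice on vehicle and 1933 ± 12.7 in CKO mice on NOX_6_18. In fl/fl mice on vehicle the order per kb was Ctsd (1048 ± 11.9), Ctsb (896 ± 35.2), Ctss (761 ± 71.4), Ctsz (421 ± 20.0), Ctsk (205 ± 17.2), Ctsl (155 ± 7.48), Ctsc (123 ± 14.9), Ctsa (105 ± 2.56), Ctsh (82.4 ± 6.73) and Ctso (16.5 ± 0.64), and no neighbours in that order overlapped. The order rests on lengths taken as the union of all annotated exons, 6489 bases for Ctsl and 1358 for Ctss. Before division by length Ctsl (mean 1008 CPM) and Ctss (mean 1033 CPM) were close in fl/fl mice on vehicle. Lack of overlap speaks only of the spread between libraries, not of these lengths or of reads in bases shared with other genes. In the other 3 WAT groups Ctsk stood after Ctsl and Ctsc in place of before them, at 72.8 to 73.3 CPM per kb, and in CKO mice Ctsk and Ctsl overlapped. Ctsk made up 5.38 ± 0.21% of the summed level in fl/fl mice on vehicle and 3.62 to 3.78% in the other groups, while Ctsb stayed at 23.5 to 24.0%. The ratio of Ctss to Ctsk per kb was 3.73 and 3.67 in fl/fl vehicle libraries and 5.38 to 6.02 in the other 6. Ctsd made up 27.5 ± 0.99% of the sum in fl/fl mice on vehicle and 23.6 to 24.4% in the other groups. The cathepsins thus kept much of their order, with Ctsk moving down in it. Ctsc stood above Ctsl in the other 3 groups, without overlap. In CKO mice Ctsd and Ctsb overlapped, and on NOX_6_18 Ctsb stood first there (464 against 457 CPM per kb).

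**Figure D3:**
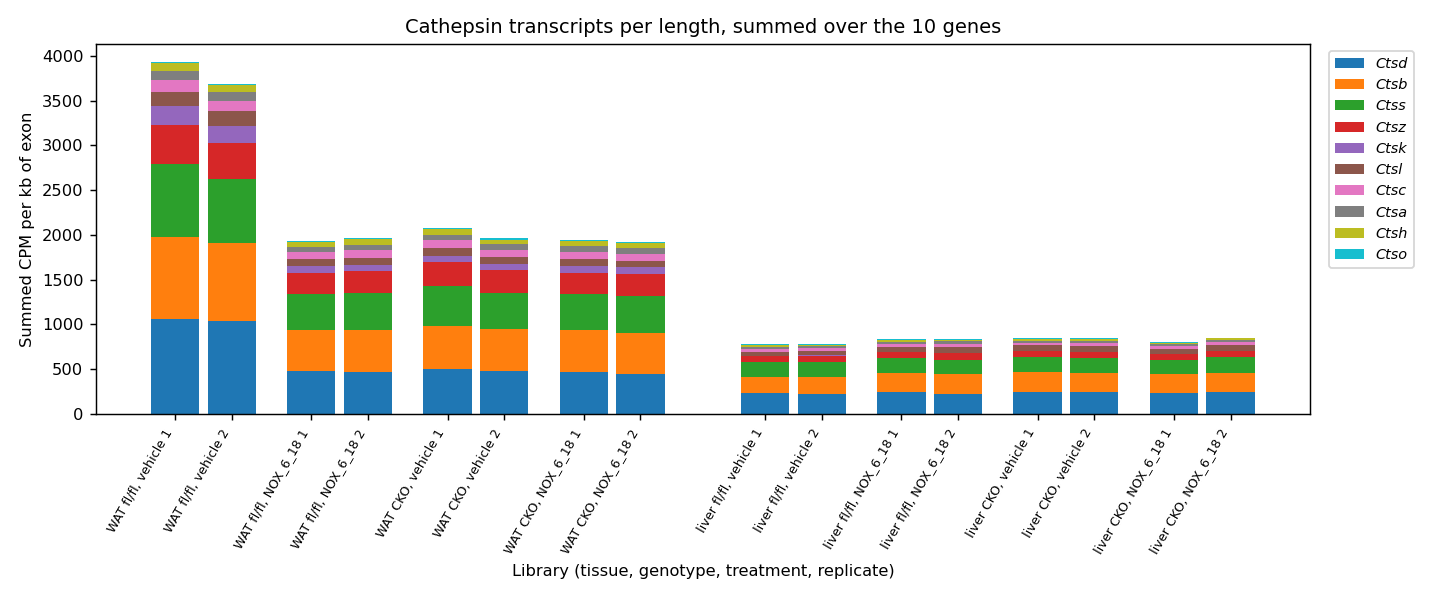
CPM per kb of exon summed over the 10 cathepsins in each of the 16 libraries, split by gene in the stacked bars. The 2 WAT fl/fl vehicle libraries average 3812 CPM per kb, the other WAT groups 1933 to 2018, and the liver groups 781 to 844.

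Several marker lists moved with the cathepsins in WAT, and others did not. The 14 macrophage markers summed to 11451 and 12452 CPM in fl/fl vehicle libraries and to 8285 to 8663 in the others; 11 of 14 were called lower and 1 higher on NOX_6_18 in fl/fl mice, with -0.76 ± 0.05 for Adgre1 and -0.80 ± 0.06 for Lyz2. Summed over the 10 genes, cathepsin CPM was 1.03 and 1.06 times the macrophage sum in fl/fl vehicle libraries and 0.765 to 0.793 times it in the others. The summed cathepsin level, in which Ctsb weighs most, was thus also lower relative to the sum of those markers. Gene by gene this did not hold for all. The macrophage markers had a median log2 fold change of -0.53, and Ctso (-0.37) fell less. The other cathepsins lay below that median, Ctsc (-0.58) and Ctsh (-0.59) by little. The 12 markers of lipid-associated macrophages, none of them a cathepsin, were all called lower, with a median of -1.25, and summed to 9842 to 10222 against 4206 to 4464 CPM. Of the fibroblast markers 8 of 9 were called lower (21775 to 22261 against 11536 to 11935 CPM), as were 6 of 8 endothelial and 4 of 6 mast cell markers. Testis markers went the other way, from 34.4 to 39.1 CPM up to 896 to 989, and epididymis markers from 318 to 359 up to 878 to 961. Neutrophil markers were also called higher in 6 of 8 tested (34 and 38.7 against 135 to 158 CPM). So were hepatocyte markers in 7 of 10 tested (17.3 and 20.4 against 59.1 to 65.3 CPM). On NOX_6_18 in fl/fl mice 6373 of the 25871 genes tested in WAT were called higher. Of the 10 adipocyte markers 5 were called higher and 2 lower, while their sum was 2258 and 2468 CPM in fl/fl vehicle libraries and 1550 to 1721 in the others. Of the 7 Kupffer cell markers 1 was called higher and 2 lower. They summed to 765 and 826 CPM in fl/fl vehicle libraries and to 828 to 884 in the others. The 11 B, T and NK cell markers had 1 called higher and 1 lower, with a median of -0.02. No marker of the macrophage, fibroblast or lipid-associated list was at 0 in a WAT group. The part of any of these in the cathepsin values was not tested.

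The genes most like each cathepsin over the 8 WAT libraries, by Pearson r of log2 CPM, had r of 0.989 to 1.000, a figure set largely by the gap between the 2 fl/fl vehicle libraries and the rest, since 12.5 to 17.2% of 12576 compared genes had r over 0.9. For Ctsb the nearest was Psap (r = 1.000), the saposin precursor, which kept r = 0.98 over the 6 libraries without fl/fl vehicle. For Ctss they were Lyz2, Capg and Lgmn (r = 0.999 each; 0.94, 0.95 and 0.97 over the 6). For Ctsd they were Rgs5, Lox and Atp6v0d2 (r = 0.999 each; 0.85, 0.82 and 0.95 over the 6), and for Ctsk Gla, Cd36 and Pla1a (r = 0.999 each; 0.51, 0.73 and -0.09 over the 6). The likeness of Ctsk to its 3 genes thus rests on the fl/fl vehicle libraries.

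Genes that serve or accompany the cathepsins were read from lists, in WAT on NOX_6_18 in fl/fl mice. All 5 partner genes were called lower: Psap (-0.87 ± 0.03), Lgmn (-0.74 ± 0.05), the legumain that matures several cathepsins, Galns (-0.68 ± 0.09), Glb1 (-0.33 ± 0.07) and Neu1 (-0.36 ± 0.09), the last 2 held in the cathepsin A complex. Of 31 other lysosomal hydrolases 28 were called lower and the other 3 were not called, with a median of -0.47, led by the acid lipase Lipa (-1.21 ± 0.05) and the β-glucuronidase Gusb (-0.91 ± 0.07). Of 11 lysosomal membrane genes 10 were called lower, Cd63 the most (-0.94 ± 0.07), and 1 higher, the amino acid sensor Slc38a9 (0.30 ± 0.08). The mannose 6-phosphate and sorting genes gave a mixed count of 7 of 13 lower, among them Nagpa (-0.67 ± 0.09), the uncovering enzyme of the tag, and the receptors M6pr (-0.39 ± 0.06) and Igf2r (-0.69 ± 0.13). The median of this list was -0.33.

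The MiT/TFE factors, which bind TCACGTGA, were called lower in 3 of 4 cases: Mitf (-0.62 ± 0.11), Tfe3 (-0.36 ± 0.08) and Tfec (-0.58 ± 0.20); Tfeb had -0.66 ± 0.24 (adjusted p = 0.0658). DESeq2 and limma-voom called 4 of 4 lower. Among inhibitors of cysteine cathepsins, Cstb (141 and 121 CPM in fl/fl mice on vehicle, 72.2 to 80.0 in the other 6 libraries) and Cst3 (1165 and 891 against 703 to 884) were called lower, at -0.83 ± 0.09 and -0.55 ± 0.13; both were named after their values were seen. Both fl/fl vehicle libraries of Cstb and Cst3 lay above the others, though for Cst3 by little. Of the other listed genes of the cystatin family 5 were called higher, Cst8, Cst9, Cst11, Cst12 and Cst13, known from testis and epididymis. Of all 25871 genes tested 6373 were called higher. These 5 had 0 to 0.362 CPM in fl/fl mice on vehicle, and Cst11 stood at 3.25 to 3.92 CPM in the others. They were listed by family, and whether their products inhibit cathepsins was not tested. Of 13 other genes named cathepsin only 4 passed the filter on low counts in WAT, and 1 of them, Ctsf (51 and 50 CPM against 32.1 to 40.4), was called lower (-0.54 ± 0.10).

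Lists of genes whose products cathepsins cut, mature or work beside were read the same way. Of 6 MHC class II genes 5 were called lower (median -0.40), H2-DMb1 at -0.61 ± 0.09 and H2-Aa at -0.48 ± 0.07. The 1 known cathepsin substrate among them, the invariant chain Cd74, which cathepsin S cuts, was not called and had -0.22 ± 0.11 (adjusted p = 0.146). Of 9 matrix genes whose products cathepsins K, L and S can cut, 8 were called lower, with Lum at -1.28 ± 0.08, Col1a1 at -0.97 ± 0.06 and Col1a2 at -0.88 ± 0.05. Cathepsin C activates several granule serine proteases, though not necessarily all of the 10 listed. Of these 10, 9 passed the filter, 4 were called lower and 1 higher, with the mast cell proteases Mcpt4 at -0.93 ± 0.10 and Tpsb2 at -0.90 ± 0.08. The matrix list shares Col1a1, Col1a2 and Lum with the fibroblast markers, and the granule list shares Mcpt4 and Tpsb2 with the mast cell markers.

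**Figure D4:**
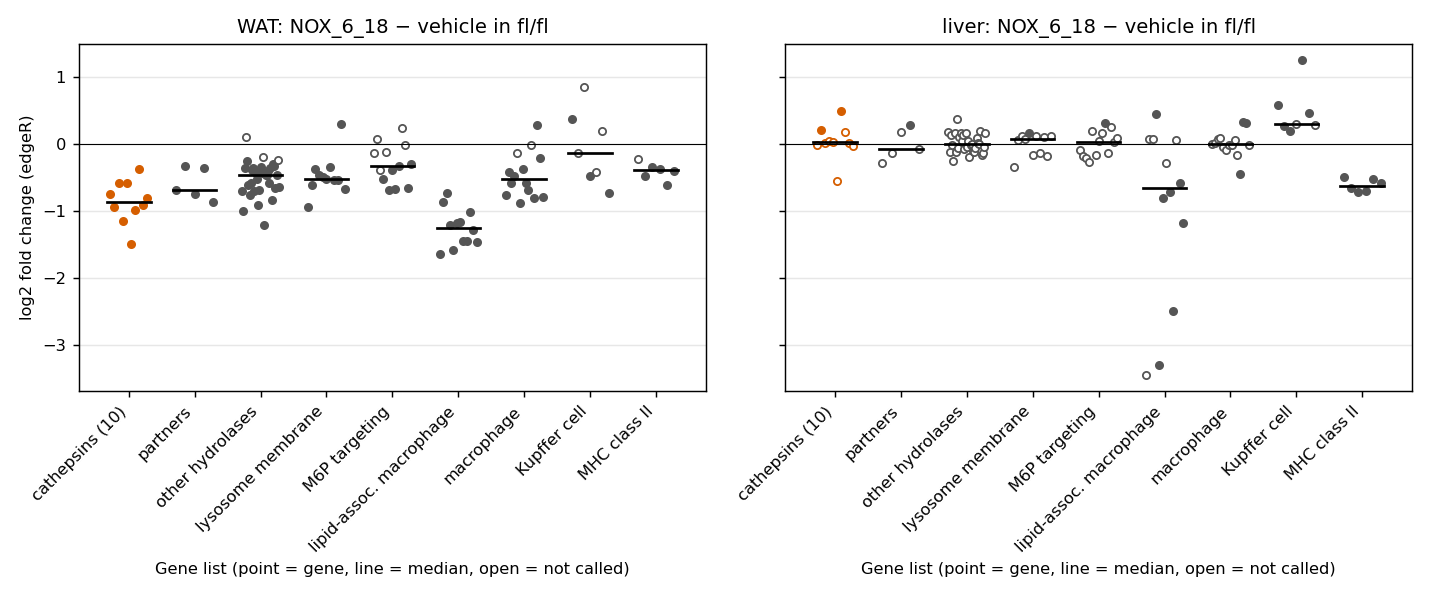
Log2 fold change (edgeR) on NOX_6_18 against vehicle in fl/fl mice for the cathepsins (orange) and 8 other gene lists (grey) in WAT (left) and liver (right); each point is a gene, the line is the list's median and open points were not called. The cathepsin median is -0.86 in WAT and 0.03 in liver, and the MHC class II median is -0.40 and -0.63.

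In liver most cathepsins showed no call between groups. Ctsb was called higher on NOX_6_18 in fl/fl mice, on the CKO label on vehicle and in CKO mice on NOX_6_18 against fl/fl mice on vehicle, and Ctsl in the first of these. That is 2, 1 and 1 of 10 called higher, where 3.78%, 3.96% and 3.79% of the 19515 genes tested were called higher, and none was called lower by edgeR, DESeq2 or limma-voom (the unadjusted p in edgeR was under 0.05 for 3, 3 and 2 genes, each of them higher). These comparisons share the fl/fl vehicle libraries too. For Ctsb and Ctsl, 2 of 10, both fl/fl vehicle libraries lay below all 6 others, as for 12.7% of genes.

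Ctsb stood at 1126 and 1154 CPM in liver of fl/fl mice on vehicle, at 1293 and 1335 on NOX_6_18, at 1349 and 1331 in CKO mice on vehicle and at 1305 and 1343 in CKO mice on NOX_6_18. The other 3 groups overlapped with each other and stood apart from fl/fl vehicle. The log2 fold changes were 0.21 ± 0.03 (adjusted p = 0.00854), 0.23 ± 0.03 (adjusted p = 0.00427) and 0.22 ± 0.03 (adjusted p = 0.00674), so the rise was about 1.15 to 1.18 times. Without fl/fl vehicle library 1 the first and last had an adjusted p of 0.0616 and 0.0511, and without CKO NOX_6_18 library 2 the last had 0.0503. The interaction in liver was -0.22 ± 0.05 for Ctsb (adjusted p = 0.0497), the only cathepsin called lower there (1.87% of genes), and this call was lost without any 1 of the 8 libraries.

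Ctsl stood at 290 and 302 CPM in liver of fl/fl mice on vehicle, at 368 and 465 on NOX_6_18, at 380 and 421 in CKO mice on vehicle and at 377 and 430 in CKO mice on NOX_6_18. Both fl/fl vehicle libraries were the lowest, and the others spread widely within each group. The log2 fold change was 0.49 ± 0.11 on NOX_6_18 in fl/fl mice (adjusted p = 0.0381), 0.44 ± 0.11 on the CKO label (adjusted p = 0.059) and 0.45 ± 0.11 for CKO mice on NOX_6_18 (adjusted p = 0.0558). The call was lost without fl/fl vehicle library 1 or 2 or fl/fl NOX_6_18 library 2 (adjusted p of 0.169, 0.129 and 0.142), and DESeq2 called Ctsl higher in both of the other comparisons (adjusted p = 7.34e-05 and 5.73e-05).

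The other 8 cathepsins overlapped between fl/fl vehicle and the rest in liver. Ctsd stood at 538 and 519 CPM in fl/fl mice on vehicle and at 522 to 576 (median 563) in the other 6 libraries. Ctss stood at 220 and 223 CPM against 210 to 230 (median 224), and on NOX_6_18 in fl/fl mice its log2 fold change was 0.02 ± 0.05 (adjusted p = 0.92). Ctsk was the lowest of the 10 in liver, with 6.29 and 4.76 CPM in fl/fl mice on vehicle and 3.16 to 4.92 in the others, and a log2 fold change of -0.56 ± 0.25 (adjusted p = 0.279). Ctsa (111 to 127 CPM over the 8 libraries), Ctsc (166 to 186), Ctsh (68.2 to 84.9), Ctso (50.7 to 59.3) and Ctsz (92.2 to 107) had no call in any of the 6 liver comparisons. NOX_6_18 in CKO mice and CKO against fl/fl mice on NOX_6_18 gave 0 of 10 called each (0.0359% of genes in both; edgeR, with 1 of 10 at an unadjusted p under 0.05 in each, Ctsh in the one and Ctso in the other, named after their values were seen, and 0 called by DESeq2 or limma-voom).

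Per kilobase the liver order in fl/fl mice on vehicle was Ctsd (225 ± 5.7, SD, n = 2), Ctsb (188 ± 3.22), Ctss (163 ± 1.82), Ctsz (70.7 ± 5.29), Ctsl (45.6 ± 1.33), Ctsc (31.3 ± 0.0223), Ctsa (26.1 ± 1.34), Ctsh (16.8 ± 0.288), Ctso (9.96 ± 0.00962) and Ctsk (3.66 ± 0.715), with no overlap between neighbours. This order rests on the same exon lengths as in WAT. In the other 3 groups Ctsz and Ctsl overlapped. The 10 genes summed to 781 ± 4.24 CPM per kb in fl/fl mice on vehicle, 834 ± 2.12 on NOX_6_18, 844 ± 0.707 in CKO mice on vehicle and 830 ± 33.2 in CKO mice on NOX_6_18. Ctsl made up 5.85 ± 0.13% of that sum in fl/fl mice on vehicle and 7.31 to 7.69% in the other groups.

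The same lists were read in liver on NOX_6_18 in fl/fl mice. Of the 31 hydrolases 0 were called by edgeR, DESeq2 or limma-voom, 5 had an unadjusted p under 0.05 in edgeR, and their median was 0.00. Among the 5 partners Neu1 was called higher (0.29 ± 0.07), of the 13 sorting genes Scarb2, the β-glucocerebrosidase receptor (0.31 ± 0.04), and of the 11 membrane genes Lamp2 (0.16 ± 0.04). Of the 19515 genes tested 339 were called lower. MHC class II genes were called lower in 6 of 6 cases (median -0.63), with Cd74 at -0.49 ± 0.05 and H2-Aa at -0.66 ± 0.06, while Ctss was not called. Of 14 macrophage markers 2 were called higher and 1 lower, and their sum was 2939 and 2962 CPM in fl/fl vehicle libraries and 3165 to 3203 in the others. Kupffer cell markers summed to 1368 and 1409 against 1693 to 1746 CPM, hepatocyte markers to 2899 and 2999 against 3159 to 3242, and neutrophil markers to 20.2 and 24.8 against 100 to 111. Of the 12 lipid-associated macrophage markers 6 were called lower and 1 higher (median -0.65), and they summed to 1284 and 1288 CPM in fl/fl vehicle libraries against 1051 to 1095. Of the 11 B, T and NK cell markers 3 were called lower and 0 higher, with sums of 45.5 and 46.9 against 23.3 to 26.4 CPM. The neutrophil protease Ctsg, not one of the 10, had 0 counts in fl/fl vehicle libraries and 0.331 to 0.873 CPM in the others. Whether these moved the small rises of Ctsb and Ctsl was not tested.

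Between tissues, in fl/fl mice on vehicle 9 of 10 cathepsins were called higher in WAT than in liver (21.6% of the 26751 genes tested) and Ctso lower (16.5%), on scaling factors set over all 16 libraries. Ctsk differed most, by 4.74 ± 0.19 on the log2 scale (adjusted p = 6.11e-10), then Ctsz (1.51 ± 0.07), Ctsh (1.23 ± 0.10), Ctsb (1.18 ± 0.03), Ctsd (1.15 ± 0.05) and Ctss (1.15 ± 0.07); Ctso had -0.34 ± 0.06 (adjusted p = 0.000464), which turned to 0.60 when scaled by library totals. In the other 3 groups 6 cathepsins were called higher in WAT (33.1%, 33.7% and 33.3% of genes) and 2 lower, Ctsl and Ctso (18.3%, 18.4% and 18.1%; both higher in all 3 groups when scaled by library totals), in fl/fl mice on NOX_6_18, CKO mice on vehicle and CKO mice on NOX_6_18. In fl/fl mice on NOX_6_18 Ctsl had -0.78 ± 0.11 and Ctso -0.88 ± 0.06, and both signs turned with library totals (0.34 and 0.23). Ctsb (0.04 ± 0.03, adjusted p = 0.394) and Ctsd (-0.03 ± 0.05, adjusted p = 0.654) were not called there, and with library totals all 10 were called higher in each of the 4 groups. Ctsk kept a difference of 3.71 to 3.82 in these 3 groups.

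The effect of NOX_6_18 in fl/fl mice differed between tissues for all 10 cathepsins, being lower in WAT than in liver (7.20% of genes called lower in this test of the difference). It was -1.48 ± 0.15 for Ctsl (adjusted p = 5.31e-05), which rose in liver, -1.18 ± 0.07 for Ctsd, -1.14 ± 0.05 for Ctsb and -0.92 ± 0.24 for Ctsk (adjusted p = 0.0221), the last with the widest error of the 10. Over 29 alternatives 8 to 10 were called: Ctsk was lost in 9 of them (adjusted p up to 0.088) and Ctsh in 3 (up to 0.0656). Among single libraries left out, the Ctsk call was lost without WAT fl/fl vehicle library 1, WAT fl/fl NOX_6_18 library 1 or 2, liver fl/fl vehicle library 2 or liver fl/fl NOX_6_18 library 2 (adjusted p = 0.0732, 0.0622, 0.0687, 0.088 and 0.0795). The CKO label on vehicle differed between tissues for 9 of 10 (6.75% of genes called lower), Ctsh having -0.44 ± 0.14 (adjusted p = 0.0508). This count ran from 7 to 10 over the 29 alternatives, with Ctsc lost in 4 (adjusted p up to 0.139), Ctso in 3 (up to 0.18) and Ctsk in 2 (up to 0.063, and 0.0505 without liver fl/fl vehicle library 2). Ctsh was called in 14 of the 29, among them without WAT fl/fl vehicle library 2, WAT fl/fl NOX_6_18 library 1 or 2, or liver fl/fl NOX_6_18 library 1 or 2 (adjusted p = 0.0448, 0.048, 0.048, 0.0224 and 0.0222). For NOX_6_18 in CKO mice the difference between tissues was called for 0 of 10 (edgeR; 0 at an unadjusted p under 0.05, 0 by DESeq2 and 0 by limma-voom) and ran from -0.21 to 0.08, where 0% of genes were called.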

How the data were processed

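Per the labels' protocols, samples frozen in liquid nitrogen gave RNA by TRIzol extraction, and a stranded KAPA kit was used for the libraries. Each library has 1 deposited table of whole-number read counts, which the authors had not normalized. GRCm38, DESeq 1.8.3, featureCounts 1.5.0 and HISAT are named, without their roles, per the submitters' processing notes. Which annotation release and which strand setting were used is not given in the sources used here. Identifiers were matched to GENCODE M21 for 55240 of 55421 genes, and 0 pairs of libraries held identical values.

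From the deposited counts, edgeR 4.0.16 (R 4.3.3) was run with TMM scaling, its filter on low counts by group and the quasi-likelihood test, with 1 fit per tissue and 1 over all 16 libraries for comparisons between tissues. P-values were adjusted by Benjamini-Hochberg over all genes tested, and an adjusted p under 0.05 is a call. The SE of a log2 fold change is its absolute value divided by the square root of the test's F statistic. It rests on a spread estimated over all libraries of the fit, not only those compared. DESeq2 1.42.0, limma-voom (limma 3.58.1), other scalings and filters (none, or 50 counts in 2 libraries), a replicate block, removal of GC and length trends, only the compared groups, and leaving out each library were alternatives; scaling on genes of at least 5 CPM was added after the data were seen. The fits were also run on simulated counts with a fixed spread and few changed genes, as many raised as lowered. That setting does not cover the many calls in WAT. CPM per kb used the union of exons, and CPM on a log2 scale had a prior count of 2.

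The 10 genes and all lists were chosen with earlier results of these data known. From each other list, up to 4 called genes per tissue with the smallest adjusted p on NOX_6_18 in fl/fl mice were to be named. For each cathepsin the 3 genes of highest Pearson r (mean of at least 5 CPM) were to be named. Neu1, Slc38a9, Tfeb, Cd74 in WAT, Cst3, Cstb, Cst12, Ctsg and Alb were named after their values were seen.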

Additional observations from a re-analysis of the deposited data

Results flagged for a closer look

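The treatment by genotype interaction in WAT passed the test for 9 cathepsins. The difference on the log2 scale was 1.49 for Ctsk, 1.05 for Ctsd, 0.92 for Ctsl, 0.91 for Ctsb, 0.82 for Ctss, 0.76 for Ctsa and for Ctsz, 0.65 for Ctsh and 0.48 for Ctsc. In liver the same test passed for Ctsb, at -0.22, where 1.87% of genes were called lower.

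The effect of NOX_6_18 in fl/fl mice differed between WAT and liver for all 10 cathepsins, where 7.20% of genes were called lower. The WAT effect minus the liver effect was -1.48 for Ctsl, -1.18 for Ctsd, -1.14 for Ctsb, -0.92 for Ctsk and for Ctss, -0.77 for Ctsz, -0.73 for Ctsa, -0.61 for Ctsh, -0.59 for Ctsc and -0.54 for Ctso. Over 29 alternatives 8 to 10 passed, with Ctsk lost in 9 and Ctsh in 3. The effect of the CKO label on vehicle differed between tissues for 9 of them (6.75% of genes called lower), by -1.43 for Ctsl, -1.20 for Ctsd, -1.14 for Ctsb, -1.03 for Ctsk, -0.84 for Ctss, -0.68 for Ctsa, -0.65 for Ctsz, -0.45 for Ctsc and -0.38 for Ctso. That count ran from 7 to 10, with Ctsc lost in 4 alternatives, Ctso in 3 and Ctsk in 2, and Ctsh gained in 14. Both tissue tests use the same fl/fl vehicle libraries.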

How the results depend on the processing

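With 2 libraries a group, WAT fl/fl vehicle libraries that stand apart and several cell types in each library, the cathepsin values describe these libraries. Over 21 alternatives no cathepsin changed direction on NOX_6_18 in fl/fl mice in WAT, and 9 to 10 were called lower. Among alternatives other than leaving out a library, 2366 of 2470 values kept their side of the threshold, 48 passed it and 37 no longer passed. A further 19 reversed with a call in either fit. Leaving out a library gave 2039 of 2080 the same, 10 newly past the threshold and 31 no longer past it. Of all 4550 values, 118 changed sign without a call in either fit, and these are counted as the same. The cause of these changes was not tested.

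In liver, the cathepsins called higher on NOX_6_18 in fl/fl mice went from 2 to 1 with only the compared groups, and ranged from 0 to 2 without 1 library. On the CKO label the count went from 1 to 2 with library totals, no filter, DESeq2, limma-voom, the GC and length correction, and only the compared groups, and ranged from 1 to 2 without 1 library. In CKO mice on NOX_6_18 against fl/fl mice on vehicle it went from 1 to 2 under the same settings except limma-voom, and ranged from 0 to 2. The count called lower for the liver interaction went from 1 to 0 with library totals, totals without mitochondrial genes, the stricter filter and scaling on genes of at least 5 CPM, to 2 with no filter and DESeq2, and ranged from 0 to 1 without 1 library.

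The replicate numbers did not pair the libraries within a tissue: correlations of same-numbered deviations ran from -0.10 to 0.17 over 13461 genes in WAT and 10307 in liver. Pairing of WAT with liver libraries was not tested. The comparisons between tissues treated them as independent. With the replicate block, the liver counts above were 2 on the CKO label, 2 in CKO mice on NOX_6_18 and 0 for the interaction, and with the block and the GC correction 2, 2 and 2. All genes called with the block went from 4 to 2 for NOX_6_18 in CKO mice in WAT and from 9 to 5 for CKO on NOX_6_18, and with block and GC correction from 6547 to 9915 for the WAT interaction.

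Between tissues, library totals gave 10 cathepsins higher in WAT and 0 lower in each group (from 6 and 2, or 9 and 1 in fl/fl vehicle). They reversed Ctso to 0.60 in fl/fl mice on vehicle, Ctsd, Ctsl and Ctso to 1.08, 0.34 and 0.23 in fl/fl mice on NOX_6_18, to 1.05, 0.37 and 0.38 in CKO mice on vehicle and to 0.99, 0.29 and 0.34 in CKO mice on NOX_6_18. Totals without mitochondrial genes reversed Ctsd in these 3 groups to 0.29, 0.27 and 0.22, and scaling on genes of at least 5 CPM to 0.13 in fl/fl mice on NOX_6_18. No alternative other than library totals reversed Ctsl or Ctso. Library totals, which include the mitochondrial counts, shifted the median of all genes by 0.95 in fl/fl mice on vehicle. Totals without mitochondrial genes shifted it by 0.13. The GC correction called 4 lower in each of the 3 groups, with Ctsb at -0.13, -0.12 and -0.15 and Ctsa at 0.00 in fl/fl mice on NOX_6_18; upper quartile scaling called 4 lower in CKO mice on NOX_6_18, with Ctsb at -0.09.

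All genes called went, for NOX_6_18 in CKO mice in WAT, from 4 to 46 with DESeq2, 10 with the GC correction, 9 with only the compared groups and 3 to 13 without 1 library. For CKO on NOX_6_18 in WAT they went from 9 to 46 with DESeq2 and 5 to 23 without 1 library, and for the WAT interaction from 6547 to 10577 with the GC correction. In liver, NOX_6_18 in CKO mice went from 7 to 15 with no filter, 35 with DESeq2 and 8 to 28 without 1 library; CKO on NOX_6_18 went from 7 to 20, 42, 24 with only the compared groups and 12 to 22 without 1 library. The liver interaction went from 478 to 829 with DESeq2 and 288 to 344 without 1 library. Without 1 library, liver counts were 615 to 931 on NOX_6_18 in fl/fl mice (from 1077), 612 to 1012 on the CKO label (from 1131) and 593 to 910 in CKO mice on NOX_6_18 (from 1069). Tissue differences in effect went from 3936 to 6103 with DESeq2 and 6518 with limma-voom for NOX_6_18 in fl/fl mice, from 3796 to 5942 and 6528 for the CKO label, and from 0 to 44 and 1 for NOX_6_18 in CKO mice, where library totals, no filter and the GC correction gave 2 each and leaving out 1 library 0 to 12.

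Scaling shifted the median of all genes on NOX_6_18 in fl/fl mice in WAT from 0.12 to 0.29 with library totals, 0.30 without mitochondrial genes, 0.26 with scaling on genes of at least 5 CPM and -0.21 with the GC correction, and Ctso, the cathepsin of smallest change, had -0.20 against that 0.29 and -0.62 against that -0.21. In this order of settings, the share of higher genes among those called went from 65.1% to 82.5%, 83.8%, 80.5% and 38.7% there, from 66.3% to 83.5%, 84.8%, 81.2% and 38.5% on the CKO label, and from 26.5% to 12.5%, 11.6%, 14.5% and 59.9% for the WAT interaction. Between tissues, library totals took it from 56.7% to 88.6% in fl/fl mice on vehicle and from 64.4% to 92.3% on NOX_6_18.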
